A study of Mus musculus with 3 samples.

Results

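The immediate-early and heat shock genes described here were 10 genes chosen by symbol, Fos, Fosb, Jun, Junb, Jund, Egr1, Atf3, Hspa1a, Hspa1b and Dusp1, out of 55357 genes counted in each library. Levels were read in every class of cells of 3 single-cell RNA-sequencing libraries of mouse liver, to see whether the libraries differed alike in all classes. Cells switch such genes on within minutes of an insult, including the handling needed to free them from a tissue.

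All mice were wild-type C57BL/6 males aged 8 weeks when they entered the study. The control library came from untreated mice. The high-fat diet library came from mice that took 60% of their calories as fat for 4 months, a model of metabolic dysfunction-associated steatohepatitis. The CCl4 library came from mice kept on chow for 3 months and then injected into the peritoneum with 0.1 mL of a 10% CCl4 solution 2 times per week for 4 weeks, a toxic model of liver fibrosis. Each library pooled 2 mice, and a library is the only sample of its group. Hepatocytes and nonparenchymal cells were freed by warm collagenase perfusion and remixed 1:1 before capture, so cell numbers do not give the makeup of the liver. Every library went through isolation, and the part of a response to it in the levels was not tested. How long each suspension waited before capture is not given in the sources used here. With no replicates, differences between libraries carried no test, a group could not be told apart from its preparation, and intervals covered counting error alone.

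Immediate-early genes need no new protein to be transcribed, because the factors that switch them on are already present and are activated by kinases within minutes. Fos, Fosb, Jun, Junb and Jund encode subunits that pair to form AP-1, while Egr1 encodes a zinc finger factor and Atf3 a stress-induced factor of the ATF family. Dusp1 encodes a phosphatase that shuts off the mitogen-activated kinases that induce such genes. Hspa1a and Hspa1b encode the inducible Hsp70 chaperones, which are switched on by heat shock factor 1 when proteins unfold. In liver these genes respond to injury, partial removal of the organ and enzymatic dissociation.

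Hspa1a and Hspa1b are near-identical neighbours, so reads may be split between them by the counting, and their sum is given as the pair beside each of them. The bases upstream of their starts are shown because they show how alike the copies are, and those of Fos and Dusp1 because these 2 members stood highest relative to control in CCl4 hepatocyte-like cells. All are from RefSeq on GRCm38.p6, 250 bases that end just before the gene start, written 5′ to 3′. Of the 10 members, 9 had an entry there. Capitals mark the motif GAANNTTC, a pair of heat shock units, in Hspa1a and Hspa1b, TGACGT, a cAMP response half-site, in Fos, and both TGACGT and the full site TGACGTCA in Dusp1.
Hspa1a, chr17:34972157-34972406, minus strand: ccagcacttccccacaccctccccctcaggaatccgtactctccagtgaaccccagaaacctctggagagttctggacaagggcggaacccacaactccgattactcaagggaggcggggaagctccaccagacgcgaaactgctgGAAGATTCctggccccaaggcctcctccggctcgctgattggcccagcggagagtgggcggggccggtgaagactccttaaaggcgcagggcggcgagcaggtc
Hspa1b, chr17:34959239-34959488, minus strand: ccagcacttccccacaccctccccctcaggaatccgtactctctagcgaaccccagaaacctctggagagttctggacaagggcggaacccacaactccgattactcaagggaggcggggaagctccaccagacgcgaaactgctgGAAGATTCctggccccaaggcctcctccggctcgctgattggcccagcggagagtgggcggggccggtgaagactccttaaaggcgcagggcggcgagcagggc
Fos, chr12:85473640-85473889, plus strand: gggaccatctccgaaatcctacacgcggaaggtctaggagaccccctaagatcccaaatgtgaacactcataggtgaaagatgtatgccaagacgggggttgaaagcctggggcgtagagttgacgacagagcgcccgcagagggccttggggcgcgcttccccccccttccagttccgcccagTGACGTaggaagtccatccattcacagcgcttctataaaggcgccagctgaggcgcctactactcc
Dusp1, chr17:26508473-26508722, minus strand: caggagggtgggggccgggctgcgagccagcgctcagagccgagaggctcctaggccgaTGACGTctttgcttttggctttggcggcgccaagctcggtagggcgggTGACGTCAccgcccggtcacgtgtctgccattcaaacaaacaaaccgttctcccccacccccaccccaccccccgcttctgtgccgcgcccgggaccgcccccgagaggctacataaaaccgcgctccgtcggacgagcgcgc

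The copies differed at 3 of 250 bases, and both held GAANNTTC from 104 to 97 bases before the start, a motif found on either strand in 6.69% of 32851 promoters. TGACGT lay in 6.47% of promoters and TGACGTCA, which holds TGACGT on each strand, in 1.55%. Of the members not shown, Jun also held GAANNTTC and Atf3 held TGACGT, read on either strand. These matches describe the letters of the windows and say nothing of binding in these cells. On GRCm38 (GENCODE M21), Fos lies at chr12:85473890-85477273, Egr1 at chr18:34859823-34864984, Hspa1a at chr17:34969190-34972156 and Hspa1b at chr17:34956436-34959238. An annotated gene on the opposite strand overlaps Jun (Junos), Junb (Prdx2), Jund (Gm11175), Atf3 (Gm24748) and Hspa1a (Gm20481), and 4 genes overlap the annotated span of Dusp1.

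The filters kept 36945 cells, made up of 11205 control, 12982 diet and 12758 CCl4 cells, with medians of 2939, 2336 and 2173 unique molecular identifiers (UMIs) per barcode. Clusters were named by markers, without using the 10 genes or 3 lists of related stress genes, and 11 classes had at least 50 cells in each library. Every marker of a class was above the rest of the same library in each class and library, other than in monocyte/macrophage-like cells with CCl4, where 19 of 20 were. The main cluster was the same in all libraries for cholangiocyte-like, dendritic-like and endothelial-like cells, and in the other 8 classes, hepatocyte-like cells included, it was not. In monocyte/macrophage-like cells it was led by C1qa, C1qb and C1qc in the control library, with 82.5% of the class. On the diet and with CCl4 it was led by Lyz2, Vcan and Ms4a6c, with 48.1% and 86.4%. RNA of hepatocytes was present in every class. Over the 10 other classes, 15 hepatocyte markers summed to 19600 to 73758 CPM, the UMIs of a gene per 1e6 UMIs of the class and library, in the control library, 70675 to 159934 on the diet and 104871 to 173961 with CCl4, and Alb alone to 2662 to 5782, 14641 to 21743 and 29319 to 49496 CPM. Between 36 and 52 barcodes were shared by any pair of libraries.

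Cholangiocyte-like cells, the lining of bile ducts, held the highest level of the 5 AP-1 genes, Egr1 and Atf3 among the 11 classes in all 3 libraries. Fos stood there at 5048 CPM (95% exact Poisson interval 4892 to 5208) in the control library, 4497 on the diet and 3753 with CCl4. Egr1 stood at 5466, 3626 and 3298 CPM and Atf3 at 2597, 2018 and 1601 CPM in the same order. In CPM, all 3 genes were thus highest in the control library and lowest with CCl4 in these cells, but the direction depended on the scale. Relative to the median ratio of the class's own markers, Fos, Egr1 and Atf3 with CCl4 were at 1.46, 1.19 and 1.21 of control. Relative to the median ratio of all genes they were at 0.944, 0.766 and 0.784. Endothelial-like cells came next for Fos, with 2993, 1536 and 1488 CPM.

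For Fos, Fosb, Jun, Junb and Egr1 the endothelial-like class held the second place in every library. For Atf3 the second class was the monocyte/macrophage-like one at 430 CPM in the control library. Its lowest was the erythroid-like one at 19.0 CPM, a span of 137-fold from highest to lowest. Fosb had a wider span of 434-fold in that library, with a lowest level of 5.17 CPM from few UMIs. Jund, which is known for steady expression, spanned 9.64-fold over the same classes, from 383 to 3687 CPM.

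Dusp1 followed another order, with endothelial-like cells first at 2171, 1542 and 1335 CPM in the control, diet and CCl4 libraries and monocyte/macrophage-like cells second at 1487, 1277 and 1294. The order of these 2 classes was clear of counting error in the control and diet libraries, while with CCl4 the intervals of 1240 to 1435 and 1209 to 1383 CPM overlapped. For the heat shock pair, cholangiocyte-like cells led in the control library at 1239 CPM, ahead of endothelial-like cells at 742. Monocyte/macrophage-like cells led on the diet at 338 CPM and with CCl4 at 226 CPM, and on the diet their interval of 320 to 356 overlapped that of the cholangiocyte-like cells, 270 to 360.

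**Figure D1:**
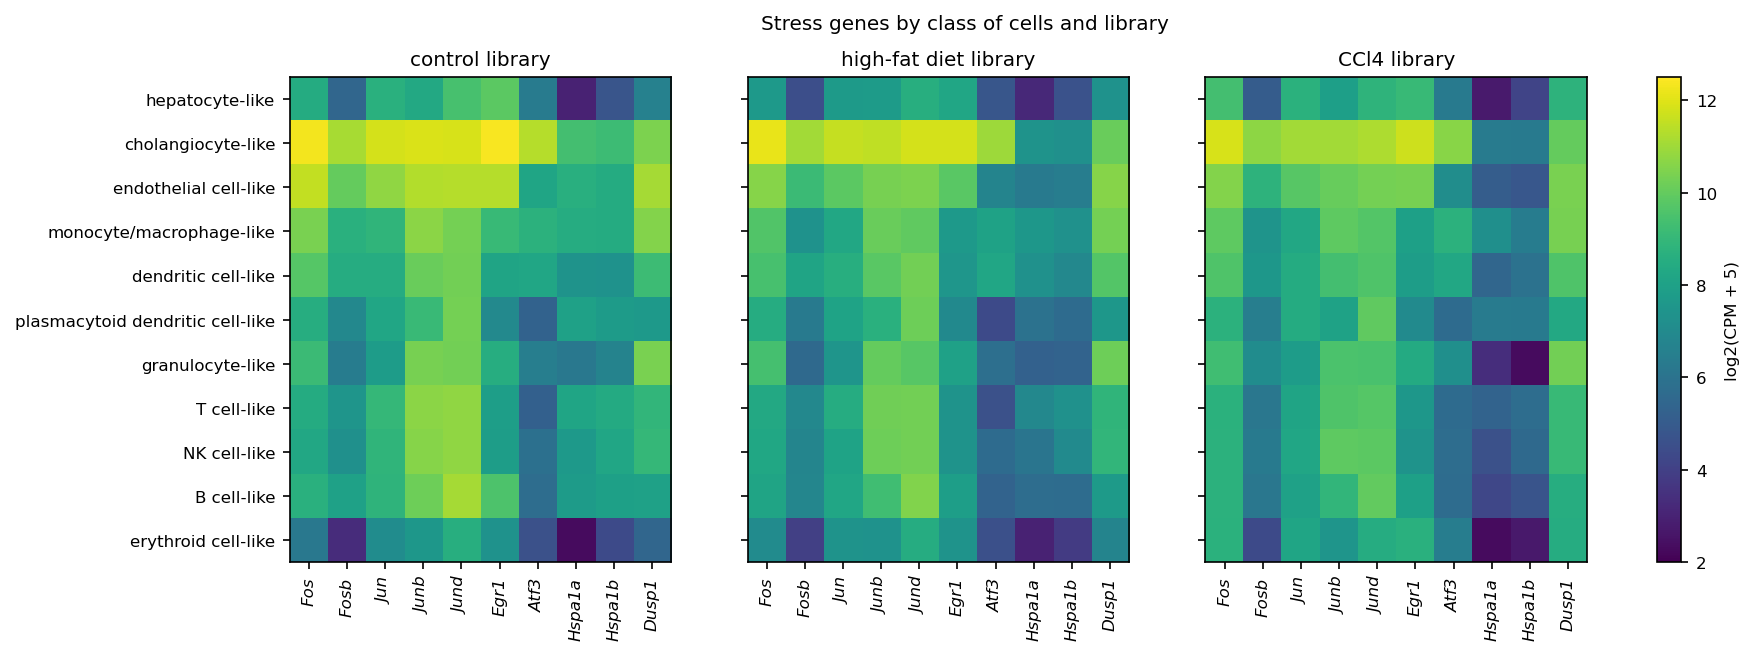
Level of each of the 10 genes (columns) in 11 classes of cells (rows), with 1 panel per library, as log2 of CPM plus 5 on a common colour scale. Cholangiocyte-like cells are brightest for the AP-1 genes, Egr1 and Atf3 in all 3 panels, while Hspa1a and Hspa1b darken from the control panel to the CCl4 panel in most nonparenchymal classes.

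Hepatocyte-like cells sat low in the order for most of the genes and high for Egr1. The class ranked 3 of 11 for Egr1 in all 3 libraries, with 916, 289 and 542 CPM in the control, diet and CCl4 libraries. The pair of Hsp70 genes reached 25.5, 24.0 and 14.5 CPM there, which put the class at ranks 10, 10 and 9 of 11. Hepatocyte-like cells, 4948 of the 11205 cells of the control library, gave 60.2% of its Egr1 UMIs, against 5.42% of the UMIs of the pair.

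In hepatocyte-like cells the diet library held less of the AP-1 genes, Egr1 and Atf3 than the control library and more Dusp1. Atf3 stood at 77.0 CPM in the control library and 22.7 on the diet, a ratio of 0.295 (exact 95% interval 0.264 to 0.328), and the ratio of Egr1 was 0.315 (0.306 to 0.325). Fosb had a ratio of 0.455. These 3 of the 10 genes were lower past 2-fold with an interval that left out 1, and no member was higher by that rule, where 6.02% of 3888 genes tested were lower and 5.12% higher. Fos stood at 352 and 200 CPM (ratio 0.569), Jun at 401 and 208 (0.518), Jund at 697 and 376 (0.540) and Junb at 314 and 213 (0.679). Dusp1 went the other way, from 92.6 to 159 CPM, a ratio of 1.72 (1.63 to 1.82). The median ratio was 0.554 over the 10 genes and 1.03 over all genes tested. Of the 10, 8 reached the mean of 25 CPM needed for that background, and Hspa1a and Hspa1b did not.

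With CCl4, Dusp1 was the member furthest from control in hepatocyte-like cells. It stood at 435 CPM against 92.6, a ratio of 4.70 (4.50 to 4.92), and it alone passed 2-fold, where 6.74% of genes were higher and 6.58% lower. Fos was higher at 650 against 352 CPM (ratio 1.85, 1.80 to 1.90). Jun at 413 against 401 CPM and Atf3 at 75.9 against 77.0 CPM lay near control, with ratios of 1.03 and 0.985. Egr1 (0.591), Jund (0.648), Fosb (0.710) and Junb (0.755) were lower, so the AP-1 genes did not move together. The median ratio of the members was 0.732, and that of all genes 0.994. Under the first form of the naming rule, which left a large control cluster out of the class, Fos with CCl4 was at 0.986 of control, Jun at 0.576, Atf3 at 0.542 and Dusp1 at 2.79, and Dusp1 on the diet at 1.02.

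Set side by side, the CCl4 library was above the diet library for 8 of the 10 genes in the pooled hepatocyte-like class, with Hspa1a and Hspa1b below. Fewer genes were above the diet library within either kind of hepatocyte-like cluster, as given further on. Atf3 had a ratio of 3.34 (2.99 to 3.75), Fos of 3.25 (3.13 to 3.37) and Dusp1 of 2.73 (2.61 to 2.85), and these 3 were higher past 2-fold against 4.17% of genes. Hspa1a, at 1.80 against 4.36 CPM from 37 and 75 UMIs, was lower past 2-fold, as were 4.32% of genes. The comparisons share libraries, so they are not independent of each other.

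The hepatocyte-like class was made of clusters of unlike kind, and within a library most of the genes differed in level between these clusters. Those whose cells had a median of 2% or more of UMIs from mitochondrial genes are called mitochondria-rich and the others mitochondria-poor. The mitochondria-rich clusters were 1516 of 4948 hepatocyte-like cells in the control library, 1166 of 6384 on the diet and 3057 of 7054 with CCl4. Their median depth was 8372, 3639 and 3304 UMIs, against 3136, 2201 and 1991 in the mitochondria-poor cells. Alb stood at 27088, 37779 and 66575 CPM in the former and 7131, 21511 and 41362 CPM in the latter. Over the 10 other classes it reached at most 5782, 21743 and 49496 CPM. The part of free hepatocyte RNA in the levels and ratios of the mitochondria-poor cells was not tested.

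Egr1 stood at 1746, 758 and 816 CPM in the mitochondria-rich cells of the control, diet and CCl4 libraries and at 108, 119 and 171 CPM in the mitochondria-poor ones. Within the control library that was 16.2-fold (15.4 to 17.1). Fos differed 12.6-fold, 3.97-fold and 3.01-fold between the 2 kinds in the control, diet and CCl4 libraries. Jund, by contrast, differed only 1.79-fold, 1.78-fold and 1.72-fold. All 10 genes had a higher level in the mitochondria-rich clusters of the control and CCl4 libraries, and on the diet all did except Hspa1a, at 4.15 against 4.44 CPM.

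Among mitochondria-rich cells, the diet library was below control for Egr1 (0.434) and Atf3 (0.381) past 2-fold, where 4.86% of genes were lower and 6.39% higher, and above it for Dusp1 (1.84, 1.72 to 1.97). Among mitochondria-poor cells the picture turned. Fos was at 112 against 52.1 CPM (2.14, 1.96 to 2.35) and Dusp1 at 113 against 30.6 CPM (3.69, 3.31 to 4.12), both higher past 2-fold as were 9.18% of genes against 4.38% lower, while Egr1 (1.10) and Jun (1.40) lay above control and Jund (0.620) below. Lower Fos, Fosb, Jun and Egr1 on the diet, as in the pooled class, was thus seen in the mitochondria-rich cells and not in the mitochondria-poor ones. Fosb, past 2-fold in the pooled class, was past it in neither kind, at 0.675 and 1.29. The pooled ratios of the AP-1 genes, Egr1 and Atf3 on the diet lay below those of both kinds. Mitochondria-rich cells were a smaller part of the class on the diet, and the part of this mix in the pooled ratios was not tested. Jund, Junb and Atf3 were below control in both kinds of cells, with Atf3 at 11.6 against 15.7 CPM in the mitochondria-poor ones.

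With CCl4, the mitochondria-poor cells held 302 CPM of Fos against 52.1 in the control library (5.79, 5.34 to 6.30), 274 of Dusp1 against 30.6 (8.94, 8.06 to 9.93), 41.6 of Atf3 against 15.7 (2.65) and 194 of Jun against 92.1 (2.11). These 4 members were higher past 2-fold, as were 9.72% of genes, and Hspa1a was lower from 6 and 37 UMIs, as were 7.43%. Atf3 and Hspa1a were below the mean of 25 CPM that the background asks for. In the mitochondria-rich cells Dusp1 alone was higher past 2-fold, at 555 against 156 CPM (3.55, 3.38 to 3.73), where 6.58% of genes were, and Egr1 (0.467) and Hspa1b (0.489) were lower, where 6.98% were. Fos was above control in both kinds, at 908 against 660 CPM in the mitochondria-rich ones. Jund at 0.612 and 0.636 and Junb at 0.676 and 0.813 were below control in both. Against the diet library, CCl4 was above for 5 of the 10 genes in the mitochondria-rich cells and 7 in the mitochondria-poor ones. In the former Fos (2.05) alone was higher past 2-fold and Hspa1b (0.46) alone lower. Atf3 was at 1.9 and Dusp1 at 1.93 there. In the latter Fos (2.7), Atf3 (3.59) and Dusp1 (2.42) were higher past 2-fold. Hspa1a (0.155) was lower there, from 6 and 56 UMIs.

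**Figure D2:**
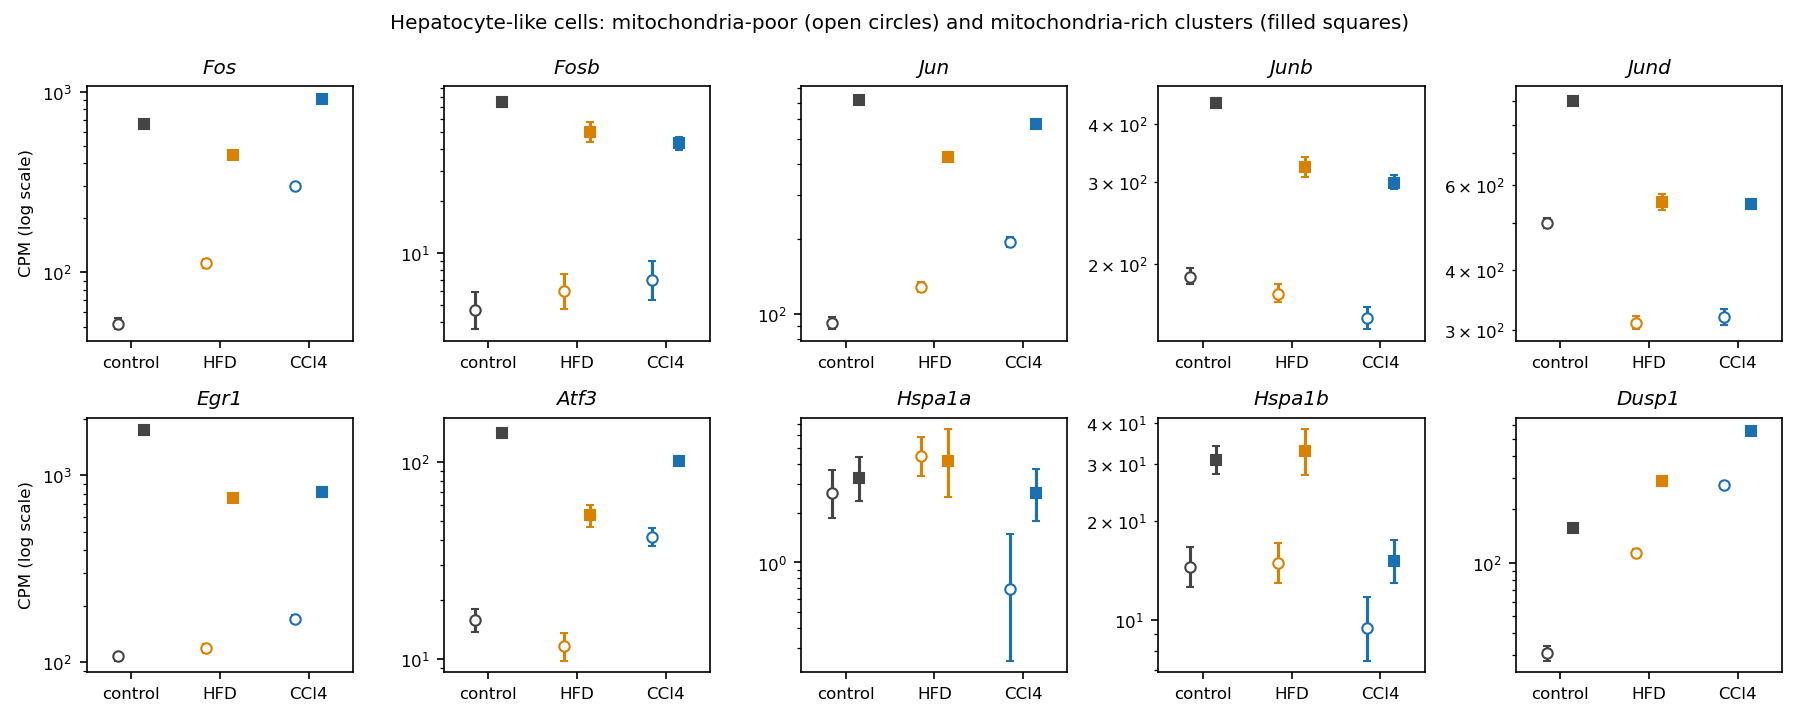
Level in CPM, on log axes, of each gene in hepatocyte-like cells of each library (control, HFD for the diet, CCl4), with open circles for mitochondria-poor clusters, filled squares for mitochondria-rich clusters and bars for exact Poisson 95% intervals. Squares lie above circles in every panel but that of Hspa1a, where their intervals overlap in the control and diet libraries, and Dusp1 steps up from control to diet to CCl4 for both symbols.

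The share of hepatocyte-like cells with a Fos UMI was 39.1% (Clopper-Pearson 37.7 to 40.5) in the control library, 30.7% on the diet and 59.8% with CCl4, at median depths of 3805, 2292 and 2288 UMIs. Thinned to 1000 UMIs per cell, with no cell left out, it was 17.4%, 14.5% and 35.7%. No class is known to lack these genes. In erythroid-like cells, the class with the lowest Fos level in the control library, the unthinned share was 15.9%, 24.0% and 47.2% at depths of 2062, 2166 and 2034 UMIs. The part of free hepatocyte RNA in these shares was not tested.

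Outside hepatocyte-like cells, most of the AP-1 genes and Egr1 stood lower in both treated libraries than in the control library. Over the 110 combinations of 10 genes and 11 classes, 24 were lower past 2-fold and 1 was higher on the diet, and 36 were lower and 6 higher with CCl4. Of the lower ones, Hspa1a gave 7 on the diet and 9 with CCl4, and Hspa1b 8 and 10. By class, 3.41% to 18.8% of all genes tested were lower on the diet and 5.05% to 33.8% with CCl4, and 5.12% to 21.1% and 6.74% to 24.0% were higher. The higher combinations were Dusp1 in erythroid-like cells on the diet, and with CCl4 Dusp1 in hepatocyte-like cells and Fos, Jun, Egr1, Atf3 and Dusp1 in erythroid-like cells.

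Each class's count is set beside the share of all its tested genes that passed the same rule. In B-like cells 4 of the 10 genes were lower on the diet and 6 with CCl4, where 18.8% and 26.5% of genes were, and 0 were higher, where 10.1% and 10.4% were. In T-like cells 2 and 5 were lower (17.4% and 26.5% of genes) and 0 higher (11.9% and 11.8%). In NK-like cells 2 and 3 were lower (14.7% and 29.1%) and 0 higher (11.2% and 12.1%). Fosb, Hspa1a and Hspa1b were lower with CCl4 in all 3 of these lymphocyte classes. In monocyte/macrophage-like cells 3 and 4 were lower (10.9% and 14.7%) and 0 higher (12.2% and 11.0%), Fosb, Egr1 and Hspa1b among them in both libraries. In plasmacytoid dendritic-like cells 2 and 3 were lower (14.4% and 24.1%) and 0 higher (12.1% and 11.8%). In dendritic-like cells 0 and 2 were lower (16.0% and 19.0%) and 0 higher (12.1% and 11.7%). Hspa1a and Hspa1b made up all of the calls in dendritic-like cells, and in the next pair of classes as well. In granulocyte-like cells 2 and 2 were lower (11.5% and 13.1%) and 0 higher (8.30% and 11.6%). In cholangiocyte-like cells 2 and 2 were lower (7.48% and 17.1%) and 0 higher (8.35% and 9.11%). In endothelial-like cells 4 and 8 were lower (13.7% and 33.8%) and 0 higher (12.6% and 14.1%). Erythroid-like cells stood apart, with 0 and 1 lower (3.41% and 5.05%) and 1 and 5 higher (21.1% and 24.0%). In that class 7 of the 10 genes reached the mean of 25 CPM that the background asks for. Fosb, Hspa1a and Hspa1b did not, and the 1 lower was Hspa1b.

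Other values moved with these counts. The median ratio of all genes tested in a class lay between -0.50 and 0.47 on the log2 scale, lowest in endothelial-like cells with CCl4 and highest in erythroid-like cells on the diet. The markers of the 10 nonparenchymal classes had median ratios of 0.267 to 0.727 on the diet and 0.235 to 0.530 with CCl4 in their own class. Those of hepatocyte-like cells had medians of 1.32 and 1.29. Single hepatocyte markers ranged widely, from 0.475 to 3.12 on the diet and from 0.144 to 3.60 with CCl4. When each class was centred on the median of all genes, 21 combinations were lower past 2-fold on the diet and 20 with CCl4, and 0 and 5 were higher. When it was centred on the class's own markers, 16 and 13 were lower and 11 and 39 higher. The part of hepatocyte RNA in the lower levels was not tested.

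Egr1 was lower than control in B-like cells in both treated libraries, at 756, 230 and 244 CPM in the control, diet and CCl4 libraries, with ratios of 0.304 (0.274 to 0.338) and 0.322 (0.293 to 0.355). Monocyte/macrophage-like cells held 538, 195 and 244 CPM of Egr1, also below control past 2-fold in both. The main cluster of that class differed between the control and treated libraries, so unlike kinds of cells were compared, and their part in these ratios was not tested. Endothelial-like cells held 2574, 896 and 1313 CPM. Plasmacytoid dendritic-like cells, at 119, 122 and 126 CPM, showed no difference beyond counting error. Relative to the median gene of the class, Egr1 in B-like cells was at 0.342 and 0.411 of control, and relative to the class's own markers at 0.657 and 0.774. On that last scale Egr1 with CCl4 was at 1.11 in monocyte/macrophage-like and 1.62 in endothelial-like cells.

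Of all classes, endothelial-like cells had the most members lower with CCl4. Of the 10 genes, 8 were lower past 2-fold, all but Egr1 (0.510) and Dusp1 (0.615), in a class where 33.8% of genes were lower. Fos stood at 2993 CPM in the control library and 1488 with CCl4, a ratio of 0.497 (0.458 to 0.539), which was 0.705 relative to the median gene. The class's own markers had a median ratio of 0.314 in the same comparison.

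Fos in lymphocytes did not follow that pattern. T-like cells held 352, 322 and 418 CPM in the control, diet and CCl4 libraries, NK-like cells 313, 299 and 425 and B-like cells 401, 274 and 422. With CCl4 the ratio was 1.19 (1.11 to 1.27) in T-like cells and 1.36 (1.20 to 1.54) in NK-like cells, neither past 2-fold. Fosb, its close relative, was at 172, 115 and 67.1 CPM in T-like cells, lower past 2-fold with CCl4. Junb and Jund in T-like cells were likewise lower past 2-fold with CCl4, at 768 against 1633 CPM and 844 against 1701 CPM. Relative to the median gene, Fos was above control in 7 of the 10 nonparenchymal classes with CCl4 and Junb in 0 of 10, and relative to the class's own markers in 10 and 8.

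In CPM, Dusp1 lay near control in most nonparenchymal classes. Its ratios had a median of 0.892 on the diet and 1.08 with CCl4 over the 10 classes, and the only one past 2-fold was that of erythroid-like cells, in both libraries. T-like cells held 475, 468 and 534 CPM and granulocyte-like cells 1352, 1167 and 1241. In plasmacytoid dendritic-like cells it stood at 199, 183 and 320 CPM and in B-like cells at 255, 207 and 369, with CCl4 the highest in both. Its ratio with CCl4 was below that of hepatocyte-like cells in 9 of the 10 classes by an interval of the ratio of ratios, from 0.131 (0.119 to 0.144) in endothelial-like cells to 0.342 (0.273 to 0.428) in plasmacytoid dendritic-like cells, and above it in erythroid-like cells. Relative to the class's own markers, however, Dusp1 with CCl4 was above control in 10 of 10 nonparenchymal classes, at 3.77 times control in NK-like, 3.49 in B-like and 2.52 in T-like cells, against 3.64 in hepatocyte-like cells.

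In erythroid-like cells several of the genes stood higher with CCl4, and Dusp1 in both treated libraries. Fos stood at 69.0, 130 and 418 CPM in the control, diet and CCl4 libraries, Dusp1 at 39.6, 102 and 360 and Atf3 at 19.0, 18.5 and 81.8. Alb stood at 5782, 21743 and 49239 CPM in the same cells and the hepatocyte markers summed to 0.658, 0.967 and 0.960 of their hepatocyte-like level. The part of hepatocyte RNA in the levels of the stress genes there was not tested. Of the 10 genes, 5 were higher past 2-fold with CCl4, where 24.0% of genes were, and 1 on the diet, where 21.1% were. Atf3, 1 of the 5, reached the mean of 25 CPM only through the CCl4 library.

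**Figure D3:**
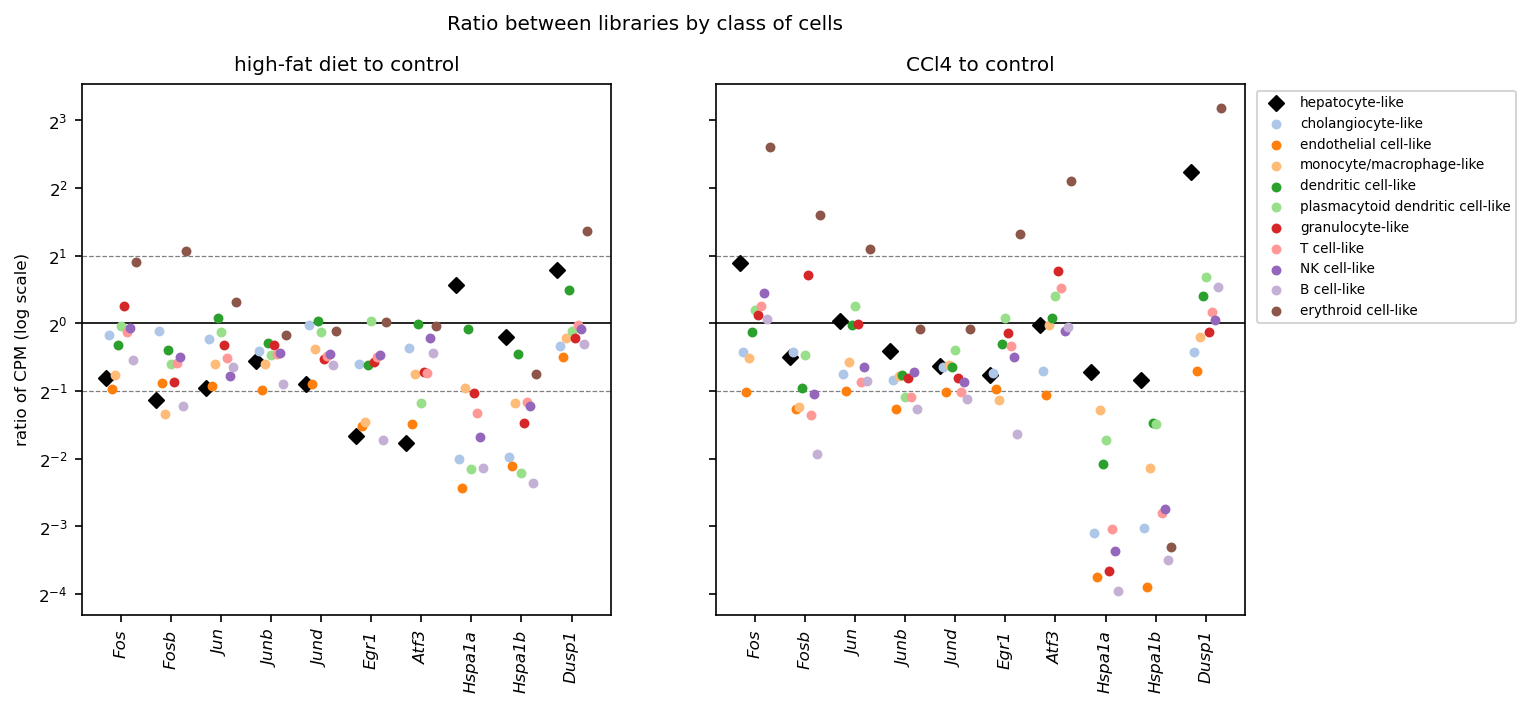
Ratio of CPM between the high-fat diet and control libraries (left) and the CCl4 and control libraries (right) for each gene, on a log axis, with 1 point for each of 11 classes, a black diamond for hepatocyte-like cells and dashed lines at 2-fold. Ratios of 0, and those against a level of 0, are not drawn. Hspa1a and Hspa1b lie below 1 in nearly all nonparenchymal classes and furthest below with CCl4, while Dusp1 lies above the 2-fold line in hepatocyte-like and erythroid-like cells with CCl4.

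The heat shock pair was lower in the treated libraries in most nonparenchymal classes. Summed, Hspa1a and Hspa1b stood at 630 CPM (608 to 652) in T-like cells of the control library, 267 on the diet and 84.1 with CCl4. In cholangiocyte-like cells they stood at 1239, 312 and 149 CPM, in endothelial-like cells at 742, 154 and 52.8 and in B-like cells at 458, 96.3 and 35.5. The steps from control to diet and from diet to CCl4 were each wider than the counting intervals in these 4 classes.

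The pair was lower past 2-fold in 8 of the 10 nonparenchymal classes on the diet and in 10 of 10 with CCl4. The exceptions on the diet were dendritic-like cells, at 271 against 323 CPM (0.841, 0.677 to 1.04), and erythroid-like cells, at 12.3 against 15.5 CPM from few UMIs. With CCl4 the ratios ranged from 0.327 (0.251 to 0.421) in plasmacytoid dendritic-like cells to 0.0712 (0.0472 to 0.103) in endothelial-like cells among classes with more than 1 UMI. Granulocyte-like cells held 1 UMI of the pair with CCl4, in 90 cells, a ratio of 0.0324 (8.18e-04 to 0.182), and erythroid-like cells also 1.

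Plasmacytoid dendritic-like cells held 468, 103 and 153 CPM of the pair, and there the intervals of the diet (68.0 to 150) and of CCl4 (120 to 192) overlapped. Relative to the median gene of each class, the pair with CCl4 was between 0.0345 and 0.432 of control and under 1 in 10 of 10 classes. Relative to the class's own markers it was between 0.114 and 0.785 of control with CCl4 and between 0.297 and 2.98 on the diet, where 7 of 10 classes were below 1. Under that last scale the pair was lower past 2-fold, with an interval that left out 1, in 4 classes on the diet and 6 with CCl4.

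In CPM, hepatocyte-like cells differed from this pattern. On the diet the pair was at 24.0 against 25.5 CPM, a ratio of 0.941 (0.831 to 1.06), and its ratio was smaller in 8 of 10 other classes by the interval of the ratio of ratios. With CCl4 it was at 14.5 CPM, a ratio of 0.566 (0.493 to 0.649), and smaller in 9 of 10. Relative to the median gene, the pair in hepatocyte-like cells was at 0.914 of control on the diet and 0.569 with CCl4. The medians of the nonparenchymal classes on that scale were 0.440 and 0.162. Relative to own markers it was at 0.713 and 0.439, near the nonparenchymal medians of 0.671 and 0.366, so the difference depended on the scale. Hspa1a alone had 81, 75 and 37 UMIs in the hepatocyte-like cells of the control, diet and CCl4 libraries, and Hspa1b 620, 338 and 260.

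**Figure D4:**
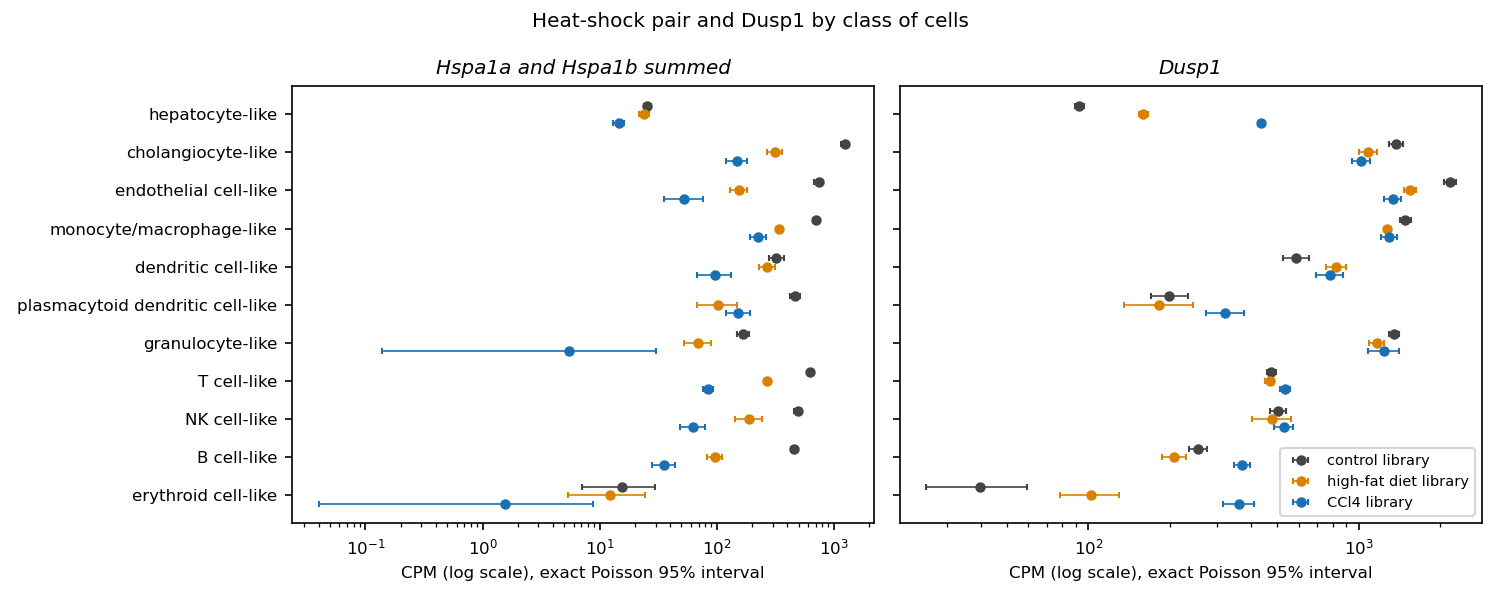
Summed level of Hspa1a and Hspa1b (left) and level of Dusp1 (right) in CPM on a log axis, by class of cells, with the control library in grey, the high-fat diet library in orange and the CCl4 library in blue and bars for exact Poisson 95% intervals. On the left the grey points lie furthest right in each class, closely followed by orange in hepatocyte-like, dendritic-like and erythroid-like cells, and on the right blue points lie far to the right of grey only in hepatocyte-like and erythroid-like cells.

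A UMI of the pair was found in 86.1% of control cholangiocyte-like cells, 47.4% of endothelial-like cells and 27.5% of T-like cells. In T-like cells, 22.9% of cells had an Hspa1b UMI in the control library, 15.2% on the diet and 5.38% with CCl4, and thinned to 1000 UMIs 14.6%, 9.53% and 3.20%. The 10% of T-like cells with the most held 83.3% of the Hspa1b UMIs of the control library, and 1 cell held 53. For Fos, the 10% with the most held 46.3%. In erythroid-like cells 3.86%, 1.85% and 0.400% of cells had an Hspa1b UMI.

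Taking each gene and nonparenchymal class against hepatocyte-like cells, the libraries did not differ alike. On the diet, the ratio to control was above that of hepatocyte-like cells in 52 combinations and below it in 29, and with CCl4 above in 16 and below in 63. Centred on each class's own markers, 80 were above and 10 below on the diet and 72 above and 13 below with CCl4, so with CCl4 the direction turned with the scale. Egr1 was above in 9 of 10 classes on the diet, Jund in 9, Fos, Jun and Atf3 in 8 each, and Dusp1 was below in 9. With CCl4, Fos, Junb and Dusp1 were below in 9 of 10. Taken against mitochondria-poor hepatocyte-like cells alone, 9 combinations were above and 70 below on the diet. For Fos, Jun and Egr1 the direction on the diet turned with the kind of hepatocyte. Against the mitochondria-poor cells they were below in 9, 9 and 8 of the 10 classes. Against the mitochondria-rich ones they were above in 7, 6 and 7 and below in 2, 1 and 3. Jund was above in 8 and Dusp1 below in 9 against either kind. Fosb and Junb were each above in 1 and below in 3 against the mitochondria-rich cells.

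Related genes were read from lists of other stress genes. Of 36 other early response genes, 18 reached a mean of 25 CPM in hepatocyte-like cells, and of these 10 were lower past 2-fold on the diet and 0 higher, with a median ratio of 0.480, where 6.02% of all genes were lower and 5.12% higher. With CCl4 6 of the 18 were lower and 2, Nr4a1 and Zfp36l2, higher, where 6.58% and 6.74% of genes were. Klf6, a zinc finger factor, stood at 86.1 CPM in the control library and 11.7 on the diet (0.136) and Cebpd, an acute-phase regulator, at 76.5 and 14.7 (0.192). Nr4a1, an orphan nuclear receptor, was at 13.7 CPM in the control library, 15.7 on the diet and 57.2 with CCl4, where its ratio of 4.19 (3.72 to 4.72) was near that of Dusp1. Nr4a1 reached the mean of 25 CPM only through the CCl4 library. Klf6, at 20.3 CPM with CCl4, reached it only through the control library. Their calls are therefore not independent of the filter. In the mitochondria-poor cells alone, 2 of 15 were lower on the diet, Cebpb and Cebpd, where 4.38% of genes were. Zfp36l2 and Dusp6, also 2 of 15, were higher, where 9.18% of genes were.

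Of 20 other heat shock genes, 16 were tested in hepatocyte-like cells. Of these, 3 were lower on the diet, Hspb8, Hsp90aa1 and Bag3, where 6.02% of all genes were. With CCl4 1 was lower, Hspb1, at 9.20 against 36.4 CPM (0.253), where 6.58% of all genes were. Of the 16, 0 were higher past 2-fold in either treated library, where 5.12% of genes were on the diet and 6.74% with CCl4. The highest ratios were those of Fkbp4 on the diet (1.55) and Dnajb4 with CCl4 (1.73). More of the list was lower in other classes. In cholangiocyte-like cells 9 of 19 tested were lower on the diet, where 7.48% of genes were, and 11 with CCl4, where 17.1% were. In T-like cells 8 of 17 were lower on the diet, where 17.4% of genes were, and 9 with CCl4, where 26.5% were. Hsph1 and Hsp90aa1, which encode a co-chaperone and an inducible Hsp90, and were picked for mention after their values were seen, were in those counts in both classes and both libraries. In erythroid-like cells 1 of 13 was lower in each treated library, where 3.41% of genes were on the diet and 5.05% with CCl4.

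Of 13 genes of the endoplasmic reticulum and integrated stress responses, 9 were tested in hepatocyte-like cells, and 5 were lower and 0 higher past 2-fold on the diet, against 6.02% and 5.12% of all genes. With CCl4, Xbp1 and Hmox1 were lower and Herpud1 higher, against 6.58% and 6.74%. Herpud1, which helps clear unfolded proteins from the endoplasmic reticulum, stood at 342, 318 and 1093 CPM in the control, diet and CCl4 libraries, and Xbp1, a factor of the unfolded protein response, at 604, 162 and 203 CPM. Higher Herpud1 with CCl4 was not particular to hepatocyte-like cells. It was past 2-fold in every compared class except plasmacytoid dendritic-like cells. Hmox1, the heme oxygenase, stood at 63.9, 12.9 and 23.6 CPM. It reached the mean of 25 CPM only through the control library, so its calls are not independent of the filter.

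Across the 33 combinations of class and library, the gene most like Fos among 5229 genes was Zfp36, which encodes a protein that destabilizes AU-rich messages, with a Pearson correlation of 0.92 between log2 levels. App, Tax1bp3, Midn and Atf3 followed with 0.91 to 0.89. For Atf3 they were Anxa5 (0.90), Fos (0.89), Frrs1 (0.86), Anxa3 (0.85) and Zfp36 (0.85). For the heat shock pair they were Nr1h2 (0.94), Mycbp2 (0.93), Sfpq (0.92), Jpt1 (0.92) and Srsf3 (0.91), and among the members they ran from 0.81 for Jund, 0.78 for Junb and 0.71 for Fosb to 0.47 for Fos and 0.24 for Egr1. The 33 points share libraries, depth and hepatocyte RNA, so these values describe likeness and carry no p-value.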

How the data were processed

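Single cells of mouse liver were captured with 10x 3′ chemistry. The deposited files hold counts: the authors aligned reads and counted UMIs per gene and barcode with Cell Ranger (7.2.0 per the file headers), and no value was scaled before deposit. The study's methods name mm10 and the submitters' processing notes GRCm39, so positions and upstream bases, taken on GRCm38, are not tied to the authors' build. Of 55357 identifiers, 52081 were found in GENCODE M21.

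The filters asked for 500 UMIs and 200 genes per barcode and removed those above 30% of mitochondrial UMIs. Depth was 49613255 UMIs in the control, 34985786 in the diet and 34061186 in the CCl4 library, and the lowest barcode held 1629 UMIs. Scrublet, at an expected doublet rate of 8%, marked 2, 1 and 3 barcodes, so it did not work as a doublet caller, and the highest-scoring barcodes were left out only as an alternative. Cells were clustered with scanpy 1.11.5 (2000 variable genes, 30 components, 15 neighbours, Leiden resolution 1.0), without 79 stress genes, the 10 members included. A cluster was named by at least 3 markers. The naming rule was changed after clusters were seen, since its first form left a large control cluster unnamed, and the first form is kept as an alternative.

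UMIs were summed per class and library. Levels carry exact Poisson intervals, ratios exact conditional intervals and ratios of ratios Wald intervals on the log scale, all at 95%, for counting error alone. A gene was past 2-fold where its ratio was at least 2, or at most its inverse, and its interval left out 1. All genes with a mean of 25 CPM over the libraries gave the background. Shares of cells carry Clopper-Pearson intervals. All 10 genes are named, and from each related list some of the highest and lowest ratios in hepatocyte-like cells. In simulated counts made from the diet and control hepatocyte-like cells (3870 genes), 100 of 100 genes changed 2.5-fold were recovered and 0 of 3670 unchanged genes were called. In those made from CCl4 and control granulocyte-like cells (4620 genes), 67 of 100 were recovered and 72 of 4420 unchanged genes called. The simulated counts were independent Poisson draws around a shared profile, the model behind the intervals, without spread between cells, mice or preparations. They check the rule for counting error alone and give no rate of false calls for these libraries. Members and gene lists were chosen with earlier results of these data known. With 1 library per group no test across samples could be run.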

Additional observations from a re-analysis of the deposited data

Results flagged for a closer look

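In CPM, the ratio of the CCl4 to the control library went opposite ways in different classes for 4 genes, and the difference was not tested, since each group was 1 library. Fos was at 6.07 times control in erythroid-like cells and 0.497 in endothelial-like cells, Jun at 2.15 and 0.498, and Atf3 at 4.31 and 0.478 in the same classes. Egr1 was at 2.49 in erythroid-like cells and 0.322 in B-like cells. Relative to the class's own markers, Fos, Jun and Atf3 in endothelial-like cells were above control, at 1.58, 1.59 and 1.52, and Egr1 in B-like cells was at 0.774. Relative to the median gene they were at 0.705, 0.706, 0.678 and 0.411. Alb in erythroid-like cells went from 5782 CPM in the control library to 49239 CPM with CCl4, and its part in these ratios was not tested.

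Some cells outside the 11 compared classes held more of a member than any compared class of the same library. Fibroblast-like cells, too few with CCl4 to be compared, held 6450 CPM of Fos in the control library (76 cells), against 5048 in cholangiocyte-like cells. On the diet they held 562 CPM of Hspa1a and 433 of Hspa1b (145 cells), against 184 and 154 in monocyte/macrophage-like cells. An unnamed control cluster of 530 cells led by Cd7, Gm36723 and Klrb1b held 715 CPM of Hspa1b, against 587 in cholangiocyte-like cells. An unnamed CCl4 cluster of 660 cells led by Slc8a1, Gm43361 and Gm43189 held 2479 CPM of Jun, against 2119 in cholangiocyte-like cells.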

How the results depend on the processing

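No paired analysis was possible because each group was 1 library with no replicate numbers, and no library could be left out. A share or ratio was held to have moved when it left the interval of the reported one, and a count when it left a set range around it. Of the summary counts and shares, 149 alternative values stayed and 50 moved. Of the ratios of the members and the pair in hepatocyte-like cells, 187 stayed and 119 moved. Another 2, past 2-fold as reported, turned to the other side of 1. The cause of each move was not tested. In mitochondria-poor hepatocyte-like cells alone, a setting chosen after seeing the data, Fosb on the diet turned to 1.29 and Egr1 to 1.10. There 2 genes were higher and 0 lower on the diet, 4 higher and 1 lower with CCl4, and against other classes 9 combinations were above and 70 below on the diet and 3 above with CCl4. In mitochondria-rich cells alone 2 were lower with CCl4. Centring on own markers, also chosen after seeing the data, gave 11 higher combinations over classes on the diet and 39 with CCl4, 13 lower with CCl4, 6 genes lower in hepatocyte-like cells on the diet and 3 with CCl4, the Hsp70 pair lower in 4 and 6 classes, and 80 above and 10 below hepatocyte-like cells on the diet against 72 and 13 with CCl4. Centring on all genes gave 0 higher on the diet and 20 lower with CCl4. The first form of the naming rule, added likewise, gave 7 and 3 genes lower in hepatocyte-like cells, and 39 above and 31 below with CCl4. A minimum of 2000 UMIs gave 2 higher combinations on the diet, the pair lower in 5 classes there and 2 genes higher in hepatocyte-like cells with CCl4, and lost the NK-like and granulocyte-like classes. Leaving out the highest doublet scores gave 0 higher on the diet and 10 above with CCl4, a resolution of 0.5 also 10, clustering with the stress genes 0 higher on the diet, and CPM outside abundant genes 0. Clustering each library on its own gave 0 higher on the diet and 2 genes higher in hepatocyte-like cells with CCl4, and the mean CPM of cells 2 and 7 above with CCl4. The share of all genes past 2-fold of CPM plus 5 in hepatocyte-like cells (4.22% higher and 5.27% lower on the diet, 5.61% and 5.81% with CCl4) was 3.44%, 4.30%, 4.31% and 4.82% at a mean of 10 CPM, 5.55%, 7.11%, 8.29% and 7.62% at 100 CPM, and 4.94% and 6.61% higher with 1 CPM added. Thinned to 1500 UMIs, Fos was found in 22.9%, 20.3% and 45.9% of hepatocyte-like cells. Granulocyte-like cells with CCl4 (90 cells) had the least depth.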

Other observations

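The share of the Hsp70 pair's UMIs assigned to Hspa1b differed between classes of cells. It was 88.4% (Clopper-Pearson 85.8 to 90.7) in control hepatocyte-like cells, 81.8% on the diet and 87.5% with CCl4. In cholangiocyte-like cells it was 47.4% (44.2 to 50.6), 47.9% and 48.5%, in T-like cells 54.4%, 57.0% and 58.2%, and in monocyte/macrophage-like cells 49.5%, 45.6% and 35.1%. The copies are near-identical, so how the counting split their reads bears on these shares, and its part was not tested.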
